A study of Ovis aries with 16 samples.

Results

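*IDH1*, *CBR1* and *PTGR1* encode liver enzymes that make or spend NADPH. They were chosen by measured values, because the study had listed them among the genes that differed between hypoxic and normoxic fetal livers. Their HOX and CON levels are therefore given as a description, with no test. The symbols pair with 4 of the 26478 identifiers in the count table. *IDH1* is ENSOARG00020016933, *PTGR1* is ENSOARG00020000127, and *CBR1* has 2 identifiers, ENSOARG00020014533 and ENSOARG00020014594. The second *CBR1* identifier carries far fewer reads, and the rows are kept apart throughout as major *CBR1* (ENSOARG00020014533) and minor *CBR1* (ENSOARG00020014594).

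The livers came from 16 singleton fetuses of Welsh Mountain sheep, collected at about day 130 of gestation by the sample labels (the study's methods give a later day). CON fetuses (*n* = 9; 5 male, 4 female) were carried by ewes kept in normoxia, and HOX fetuses (*n* = 7; 3 male, 4 female) by ewes kept in hypoxia for 30 days of late gestation. Each liver is 1 fetus and 1 library of polyA-enriched RNA from whole tissue, and no group carried a genetic change. Total counts were 24065959 to 29353692 reads per CON liver and 23955166 to 33952503 per HOX liver. Levels are given as CPM, the counts of a gene relative to the library total, scaled by edgeR's TMM factors. HOX animal 1 lay at 64.4 on the first principal component of all tested genes, against −15.6 to 6.2 for the other 15 livers, and values are given with and without it.

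Cytosolic NADPH is the reducing power that keeps glutathione and thioredoxin reduced and that drives lipid synthesis. Isocitrate dehydrogenase 1 (*IDH1*) makes it in the cytosol and peroxisome when it converts isocitrate to α-ketoglutarate. Carbonyl reductase 1 (*CBR1*) and prostaglandin reductase 1 (*PTGR1*) spend it. *CBR1* is a short-chain dehydrogenase that reduces quinones, prostaglandins and carbonyl drugs, and *PTGR1* is a medium-chain reductase that inactivates leukotriene B4 and reactive alkenals. In hepatocytes such reductases clear carbonyls that arise from lipid peroxidation.

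All 4 rows had a lower mean in HOX than in CON livers, and in each row all 7 HOX livers were under the mean of the CON livers. The rows were listed for this same contrast, so such counts of livers describe them and are no evidence. The share of all tested genes placed this way was not counted. The groups overlapped in all 4 rows. *IDH1*, the NADPH source, ranged from 71.5 to 124 CPM in CON livers, with a median of 88.0 CPM, and from 43.9 to 82.4 CPM in HOX livers, with a median of 67.1 CPM. Its mean was 92.0 ± 18.3 CPM in CON (SD, *n* = 9) and 65.1 ± 13.9 CPM in HOX (SD, *n* = 7). HOX animals 1 and 2 were lowest, at 43.9 and 49.3 CPM, and HOX animal 4 was highest. In all, 5 of the 7 HOX livers lay below the lowest CON liver, and 5 of the 9 CON livers above the highest HOX liver. On the log2 scale the HOX minus CON difference of *IDH1* was −0.50 (SE 0.147), and −0.42 (SE 0.138) without HOX animal 1.

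**Figure D1:**
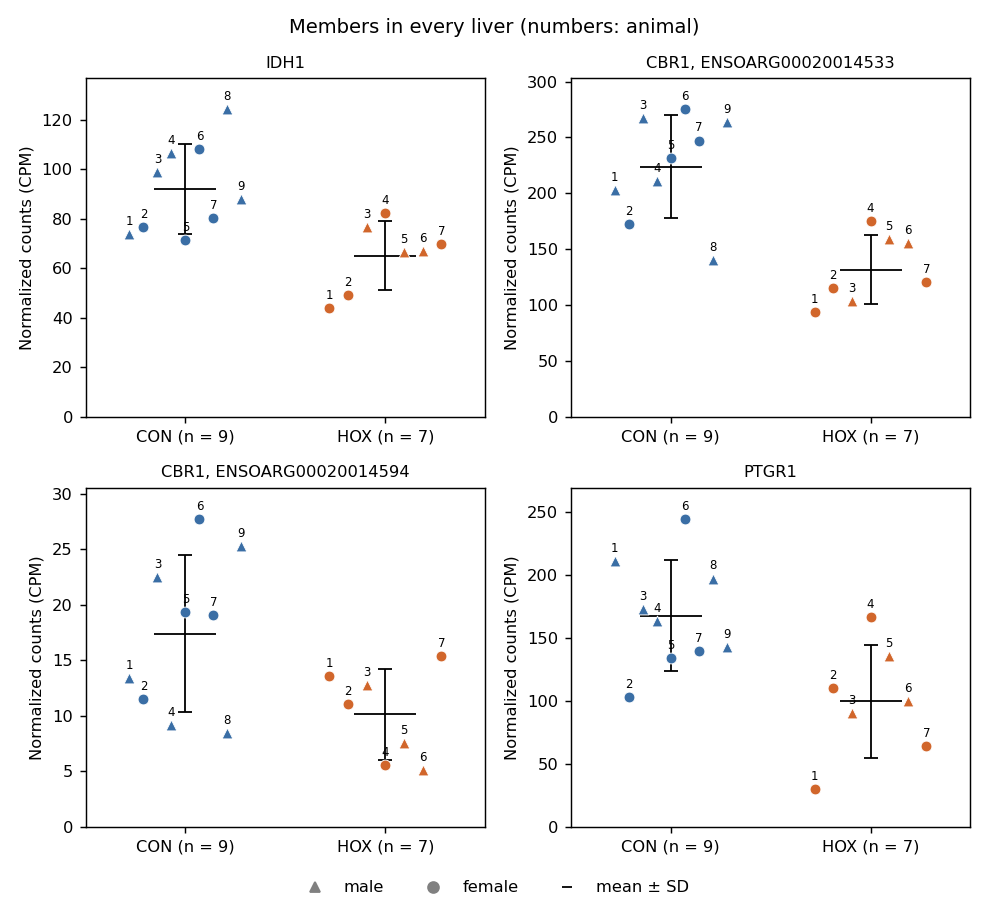
Normalized counts (CPM, y axis) of *IDH1*, both rows paired with *CBR1*, and *PTGR1* in each CON and HOX liver (x axis), with animal numbers, triangles for males and circles for females. Black bars are the mean ± SD; the group ranges overlap in every panel, and the 7 HOX livers of each panel are all under the CON mean. The rows were listed for this same contrast, so their placing is a description only.

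The reductase row major *CBR1* ranged from 140 to 275 CPM in CON livers, with a median of 232 CPM, and from 93.8 to 175 CPM in HOX livers, with a median of 120 CPM. Its means were 224 ± 46.0 CPM in CON (SD, *n* = 9) and 132 ± 31.1 CPM in HOX (SD, *n* = 7). The overlap came from CON animal 8, the lowest CON liver, and CON animal 2 at 173 CPM, since the other 7 CON livers all lay above the highest HOX liver. Its HOX minus CON difference was −0.76 on the log2 scale (SE 0.159), and −0.69 (SE 0.155) without HOX animal 1.

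Minor *CBR1* had 132 to 699 reads per liver and varied more among livers of 1 group. It ranged from 8.41 to 27.7 CPM in CON livers (median 19.1 CPM; mean 17.4 ± 7.09 CPM, SD, *n* = 9) and from 5.07 to 15.3 CPM in HOX livers (median 11.0 CPM; mean 10.1 ± 4.09 CPM, SD, *n* = 7). Of the 7 HOX livers, animals 4, 5 and 6 lay below the lowest CON liver. The HOX minus CON difference was −0.78 on the log2 scale (SE 0.292), and −0.86 (SE 0.310) without HOX animal 1. This row reached the 250 reads asked of a tested gene in 11 livers, 7 CON and 4 HOX, whereas the other 3 rows reached it in all 16.

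*PTGR1* ranged from 103 to 244 CPM in CON livers, with a median of 163 CPM, and from 30.1 to 166 CPM in HOX livers, with a median of 99.9 CPM. HOX animal 1 held the 30.1 CPM, and the next lowest, HOX animal 7, had 63.6 CPM. The means were 167 ± 43.9 CPM in CON (SD, *n* = 9) and 99.2 ± 44.7 CPM in HOX (SD, *n* = 7), or 111 ± 35.8 CPM in the 6 other HOX livers. Of the 7 HOX livers, 4 lay below the lowest CON liver. The HOX minus CON difference was −0.75 on the log2 scale (SE 0.264), and −0.60 (SE 0.204) without HOX animal 1.

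The median HOX minus CON difference of all 8580 tested genes was 0.01 on the log2 scale, and 48.8% of them were lower in HOX. With edgeR's quasi-likelihood test 0.0583% of tested genes (5 genes) passed the study's threshold, an adjusted *P* under 0.15, as lower in HOX, and none of the 4 rows was among them. The number of genes with an unadjusted *P* under 0.05 in that test was 1022, in either direction. With DESeq2, the tool that the study names, 1.61% of genes (138) passed as lower, and 3 of the 4 rows were among them, all but minor *CBR1*. The rows were listed for this same contrast, so the counts are no evidence about them.

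The *CBR1* rows moved together in CON livers, while the HOX livers fell into 2 sets that stood high on 1 row and low on the other. Over the 9 CON livers their log2 CPM had a Pearson *r* of 0.89 (Spearman rho 0.92), and *r* was 0.90 without the 2 livers farthest from the median of major *CBR1*. Over the 7 HOX livers *r* was −0.88 (rho −0.68), −0.82 without the 2 farthest livers, and −0.88 without HOX animal 1. HOX animals 4, 5 and 6 had the 3 highest levels of major *CBR1*, at 175, 159 and 156 CPM, and the 3 lowest of minor *CBR1*, at 5.51, 7.49 and 5.07 CPM. HOX animals 1, 2, 3 and 7 had 93.8 to 120 CPM of major *CBR1* and 11.0 to 15.3 CPM of minor *CBR1*. Inside these sets the rows had no single relation. HOX animal 6 was lowest of its set on both rows, and HOX animal 7 highest of its set on both. HOX animals 1, 3 and 2 rose in that order on major *CBR1*, at 93.8, 104 and 116 CPM. The same animals fell on minor *CBR1*, at 13.5, 12.8 and 11.0 CPM. The negative *r* rests largely on the gap between the sets. Leaving out HOX animal 1 keeps most animals of both sets. The 2 farthest livers were HOX animals 4 and 5, so without them only HOX animal 6 of that set is left. Both rows of a point come from 1 library, and the correlations are a description of these livers. The pattern was noticed in the data, and the difference between the groups' correlations was not tested.

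**Figure D2:**
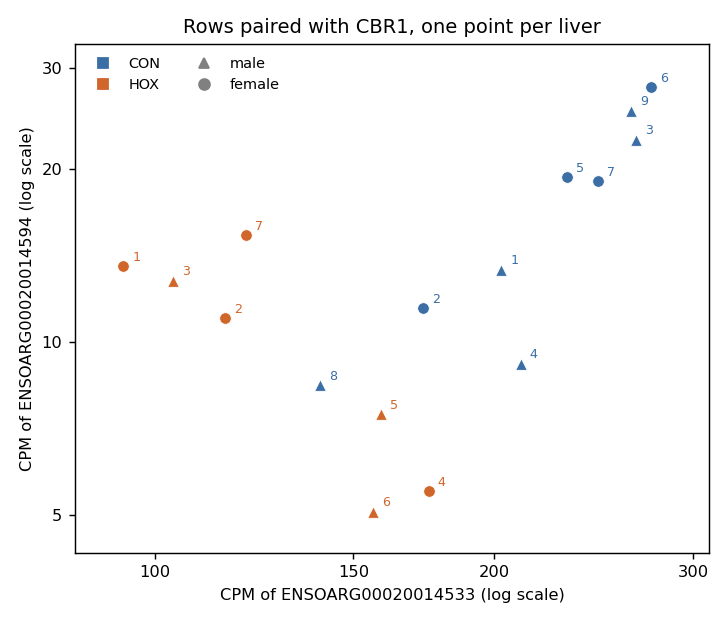
CPM of ENSOARG00020014533 (x axis) against ENSOARG00020014594 (y axis), both on log scales, with 1 numbered point per liver (blue, CON; orange, HOX; triangles, males; circles, females). The CON livers climb together (*r* = 0.89, *n* = 9), while HOX animals 4, 5 and 6 lie at the lower right of the HOX livers (*r* = −0.88, *n* = 7).

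The share of *CBR1*-paired reads that lay on minor *CBR1* comes from the same reads and restates the pattern as a proportion. It was 4.16% to 9.15% in CON livers (mean 6.97% ± 1.58, SD, *n* = 9) and 3.05% to 12.6% in HOX livers (mean 7.75% ± 4.11, SD, *n* = 7). The lowest share, in HOX animal 4, was 132 of 4322 reads, with an exact (Clopper-Pearson) 95% interval of 2.56% to 3.61%. The highest, in HOX animal 1, was 465 of 3685 reads, with an exact interval of 11.6% to 13.7%. Shares in HOX animals 4, 5 and 6 (3.05%, 4.50% and 3.15%) lay below those in HOX animals 1, 2, 3 and 7 (12.6%, 8.69%, 11.0% and 11.3%), and 7 of the 9 CON shares lay between 5.66% and 8.73%. The shares of HOX animals 2 and 5 lay inside the full CON range. The exact intervals cover counting error only. The group means of the log2 ratio of major *CBR1* to minor *CBR1* were 3.77 ± 0.377 in CON and 3.79 ± 0.963 in HOX (SD, *n* = 9 and 7), so the means differed by 0.01 (0.18 without HOX animal 1), less than either SD, and the HOX livers were more widely spread.

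The counting rule is not given in the sources used here, so reads of near-identical copies or overlapping genes could have been split between the rows or lost. A split of reads leaves the sum of both rows as it is. The sum was 149 to 303 CPM in CON livers (mean 241 ± 52.6, SD, *n* = 9) and 107 to 180 CPM in HOX livers (mean 142 ± 27.5, SD, *n* = 7). For the sum, 8 of the 9 CON livers lay above the highest HOX liver, against 7 for major *CBR1* alone, and CON animal 8, at 149 CPM, again lay inside the HOX range.

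Other pairs of rows were less alike in CON livers. *IDH1* and *PTGR1* had an *r* of 0.56 over the 9 CON livers and 0.65 over the 7 HOX livers, and the latter was 0.13 without HOX animal 1, so it rested on that liver. Major *CBR1* and *PTGR1*, both reductases, had an *r* of 0.11 in CON and 0.80 in HOX livers (0.70 without HOX animal 1). Minor *CBR1* and *PTGR1* had an *r* of 0.11 in CON and −0.67 in HOX livers (−0.73 without HOX animal 1). *IDH1* and major *CBR1* had an *r* of −0.19 in CON livers, which was 0.56 without the 2 livers farthest from the *IDH1* median, and of 0.60 in HOX livers, which was 0.32 without HOX animal 1. The *IDH1* pair with minor *CBR1* had an *r* of −0.22 in CON livers, which ran from −0.46 to 0.17 with 1 liver left out, and of −0.41 in HOX livers, which was −0.23 without HOX animal 1.

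**Figure D3:**
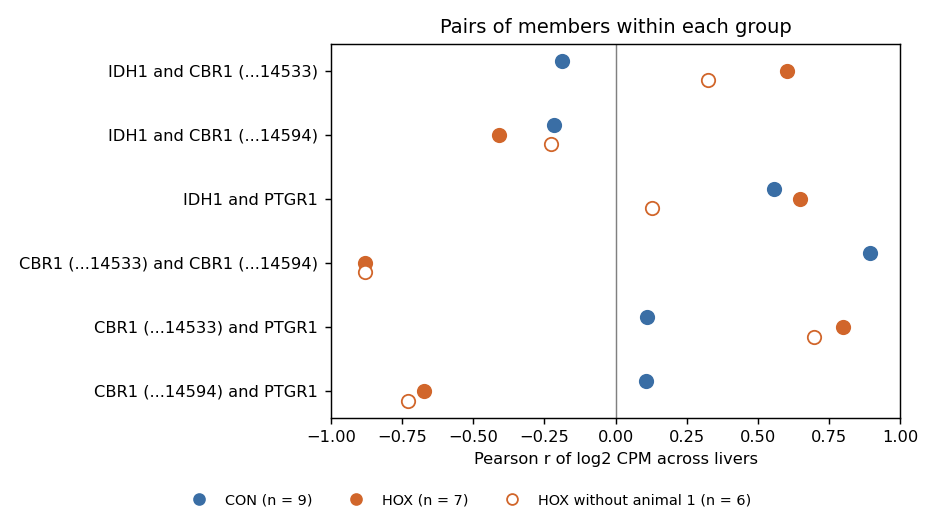
Pearson *r* of log2 CPM (x axis) for each of the 6 pairs of rows (y axis) in CON livers (blue, *n* = 9), HOX livers (orange, *n* = 7) and HOX livers without animal 1 (open, *n* = 6). The pair of *CBR1* rows has the highest *r* in CON (0.89) and the lowest in HOX (−0.88).

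Fetal sex was not used to choose the genes and was tested. No row passed the test. The female minus male difference, with treatment in the model, was −0.21 for *IDH1* (SE 0.141; 95% interval −0.51 to 0.09) and −0.21 for *PTGR1* (SE 0.263; −0.76 to 0.35) on the log2 scale. It was −0.01 for major *CBR1* (SE 0.160; −0.35 to 0.33) and 0.35 for minor *CBR1* (SE 0.284; −0.25 to 0.95). In edgeR's quasi-likelihood test with Benjamini-Hochberg adjustment over all 8580 genes, the adjusted *P* was 0.974 for *IDH1*, 0.998 for major *CBR1*, 0.974 for minor *CBR1* and 0.976 for *PTGR1*. Of all tested genes 0.0233% (2 genes) passed, against 267 with an unadjusted *P* under 0.05. DESeq2 called 7 genes and limma-voom 3, and neither called any of the 4 rows.

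No row passed the test of whether its HOX minus CON difference differed between the sexes. Each sex was also fitted alone, on the genes tested in the 16 livers. In these fits that difference was −0.48 in males and −0.44 in females for *IDH1*, −0.63 and −0.86 for major *CBR1*, −0.89 and −0.76 for minor *CBR1*, and −0.70 and −0.74 for *PTGR1*, on the log2 scale. The interaction, the female minus the male difference in the fit to all 16 livers, was 0.03 for *IDH1* (95% interval −0.59 to 0.65), −0.24 for major *CBR1* (−0.94 to 0.46), 0.12 for minor *CBR1* (−1.12 to 1.37) and −0.04 for *PTGR1* (−1.20 to 1.12). The adjusted *P* of edgeR's quasi-likelihood test was 0.999 for all 4. These intervals still allow, in at least 1 direction, sex differences as large as the HOX minus CON differences themselves. Over all genes 0% passed with edgeR (0 genes), with 281 at an unadjusted *P* under 0.05, while DESeq2 called 6 and limma-voom 0, none of them among the 4 rows.

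**Figure D4:**
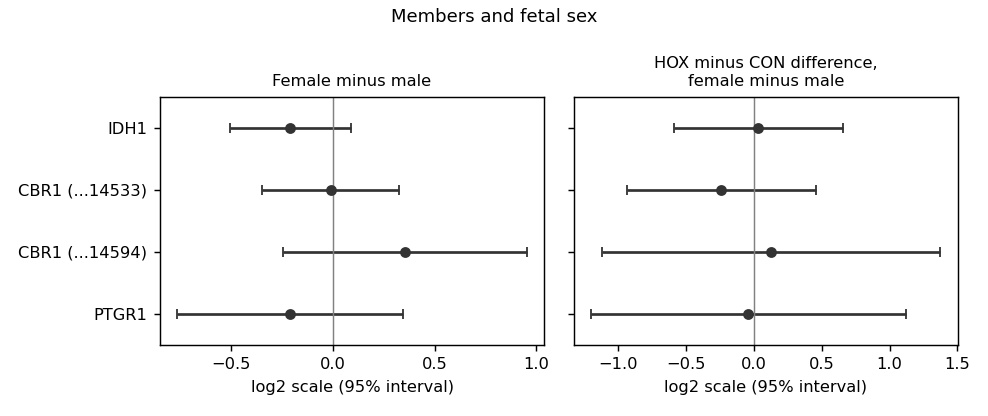
Left, female minus male difference of each row with treatment in the model; right, the HOX minus CON difference of females minus that of males, both on the log2 scale with 95% intervals from edgeR (*n* = 16 livers). Every interval spans 0, and the intervals of minor *CBR1* and *PTGR1* are the widest.

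Of 94 symbols in lists of NADPH supply, short-chain and medium-chain dehydrogenases, aldo-keto reductases and NADPH or NADH flavoprotein reductases, identifiers were found for 14 rows, the 4 described rows included. A symbol could be paired with a row only where the study listed it for the HOX and CON contrast, so the directions below are no independent evidence. Of the 14 rows, 11 had a lower and 3 a higher level in HOX, with a median difference of −0.43 on the log2 scale (−0.41, with 11 lower, without HOX animal 1), against 0.01 for all tested genes. edgeR called 0 of the 14, and DESeq2 called 6 as lower, against 1.61% of all genes, and 1 as higher, against 1.15%. Of the 19 symbols of NADPH supply, only *IDH1* had an identifier.

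Among the medium-chain reductases, *RTN4IP1*, a mitochondrial NADPH oxidoreductase, had 20.6 ± 2.98 CPM in CON and 15.9 ± 3.18 CPM in HOX livers (SD, *n* = 9 and 7; log2 difference −0.37). *VAT1*, a membrane-associated member of the same family, stood at 75.9 ± 11.7 CPM in CON and 101 ± 21.9 CPM in HOX (log2 difference 0.41), and it was the row DESeq2 called as higher. Among the short-chain dehydrogenases, the mitochondrial *HSD17B10*, which acts in isoleucine breakdown, differed by −0.11, and by −0.29 without HOX animal 1. The aldo-keto reductase *AKR7L* had a higher HOX level, with a log2 difference of 0.50 (SE 0.251).

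The flavoprotein reductases held 6 rows. DESeq2 called 3 of them as lower. These were *CYB5R3*, the NADH-cytochrome b5 reductase (log2 difference −0.27), its relative *CYB5RL* (−0.52), and *IYD*, which recovers iodide from iodotyrosines with NADPH (−0.77). *MTRR*, which reactivates methionine synthase with NADPH, differed by −0.28. *PYROXD2* had the largest difference of the 14 rows, −1.06, with a SE of 0.421. *TXNRD2*, the mitochondrial thioredoxin reductase, had 36.3 ± 5.41 CPM in CON and 45.4 ± 16.5 CPM in HOX livers, a log2 difference of 0.32 (SE 0.186).

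**Figure D5:**
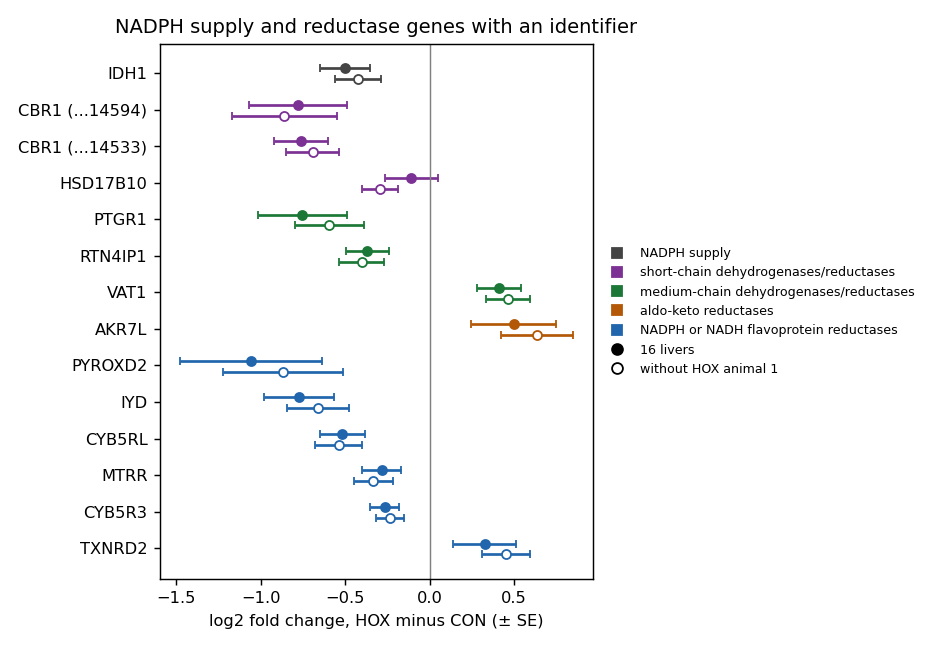
HOX minus CON difference on the log2 scale (x axis, ± SE) of the 14 rows of NADPH supply and reductase genes (y axis), coloured by list, for 16 livers (filled) and without HOX animal 1 (open). The rows lower in HOX number 11 in both, and *VAT1*, *AKR7L* and *TXNRD2* are the 3 higher ones.

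*IDH1*, *CBR1* and *PTGR1* are also known targets of NRF2, the transcription factor that answers electrophiles. Of 39 NRF2 target symbols, 5 rows had an identifier, and all 5 were lower in HOX, against 48.8% of all tested genes. A target had an identifier only where the study listed it for this same contrast, so the shared direction is no evidence about NRF2 targets. *MGST1*, a microsomal glutathione transferase, was the only row of the 5 beyond the 4 described rows. It had 163 ± 32.2 CPM in CON and 102 ± 37.7 CPM in HOX livers (SD, *n* = 9 and 7), a log2 difference of −0.68. The other targets on the list were not analysed here.

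In bulk tissue, fewer cells of a type and less RNA per cell cannot be told apart. The hepatocyte markers with an identifier (12 of 21) were present in every liver, and their summed level was 22235 to 33243 CPM in CON and 15785 to 24991 CPM in HOX livers. Of these 12, 11 were lower in HOX, with a median log2 difference of −0.51. Of all tested genes 48.8% were lower, with a median of 0.01. Markers had an identifier only where the study listed them for the HOX and CON contrast, so marker directions are no independent evidence. The 4 erythroid markers of 13 summed to 170 to 533 CPM in CON and 259 to 772 CPM in HOX livers, and all 4 had a higher HOX level. The macrophage marker *CD163* had 254 to 419 CPM in CON and 61.9 to 326 CPM in HOX livers, with the lowest value in HOX animal 1. The endothelial and progenitor marker *CD34* had 6.35 to 29.7 CPM in CON and 15.6 to 54.0 CPM in HOX livers. The 4 mesenchymal markers of 10 summed to 216 to 326 CPM in CON and 170 to 264 CPM in HOX livers. Of these 4 markers, 3 were lower in HOX and 1, *ASPN*, was higher (log2 difference 0.38). No marker with an identifier was at 0 in any liver. With the erythroid level as a covariate the HOX minus CON differences were −0.48 for *IDH1* (SE 0.189) and −0.80 for major *CBR1* (SE 0.194). They were −0.63 for minor *CBR1* (SE 0.342) and −0.83 for *PTGR1* (SE 0.334). The 4 erythroid markers were themselves listed for this contrast, so this fit cannot separate cell makeup from treatment. The part of cell makeup in the levels of the 4 rows was not tested further.

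Symbols were at hand only for genes that the study listed for the HOX and CON contrast. The genes whose levels followed each row most closely over the 9 CON livers were taken from the 428 others with a symbol. For *IDH1* these were *ADK*, adenosine kinase (*r* = 0.88), *PMM1* (0.79), *KL* (0.78), *SESTD1* (0.77) and *NEK9* (0.74). *ADK* was also close to *IDH1* in the HOX livers, with an *r* of 0.79, or 0.90 without HOX animal 1. *KL*, which encodes klotho, was not, with an *r* of −0.53 in HOX livers, or −0.92 without HOX animal 1. Among all 8579 other genes, most of them without a symbol here, 5 had a higher *r* with *IDH1* than *ADK*, and 128 had a higher one than *NEK9*. The most opposite were *ICAM5* (−0.94) and *FBXO21* (−0.88).

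*MPI* and *CDIPT* stood among the nearest genes of both *CBR1* rows. Major *CBR1* was closest to *MPI*, mannose phosphate isomerase (0.95), to minor *CBR1* (0.89), *CDIPT* (0.88), *VPS25* (0.86) and *NDUFB5* (0.81). Minor *CBR1* was closest to *CDIPT* (0.93), *MPI* (0.92), major *CBR1* (0.89), *MRPL11* (0.85) and *MORF4L2* (0.81). In HOX livers *VPS25* had an *r* of 0.74 with major *CBR1*, or 0.78 without HOX animal 1. *MPI* had an *r* of −0.20 with it, or 0.11 without HOX animal 1. The value of *CDIPT* rested on that liver, at −0.13 with it and 0.68 without it. Opposite to major *CBR1* were *BROX* (−0.91) and *EPN2* (−0.85), and opposite to minor *CBR1* were *RAP1GAP* (−0.85) and *CARMIL1* (−0.85). Among all 8579 other genes, 1 had a higher *r* with major *CBR1* than *MPI*, and 2 had a higher one with minor *CBR1* than *CDIPT*. Of the same genes, 11 had a higher *r* with major *CBR1* than minor *CBR1* had, and 10 the other way round.

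*PTGR1* was closest to *CYB5RL* (0.93), another reductase of the lists above, and no gene among all 8579 others had a higher *r* with it. *DDX56* (0.90), *H1-3* (0.83), *HOPX* (0.81) and the complement gene *C9* (0.80) came next among genes with a symbol, with 5 to 57 of all genes above them, and *TMED1* (−0.81) and *SLC29A1* (−0.78) were most opposite. In HOX livers *CYB5RL* and *PTGR1* had an *r* of −0.25, or −0.04 without HOX animal 1. Each list was taken from the extremes of many values of *r*, and the lists are a description of these 9 CON livers.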

How the data were processed

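Gene expression was measured in the livers of 16 sheep fetuses. The authors made polyA-enriched libraries, mapped the reads with STAR (2.7.10b in the submitters' processing notes) against the ovine build ARS-UI_Ramb_v1.0, and deposited the raw counts of each gene, without normalization or filter. The counting rule and the use of strand are not given in the sources used here. Condition, animal number and sex came from the labels. Symbols came only from the identifier and symbol columns of the study's supplementary gene table (438 of 487 identifiers), and the RefSeq gene table held 0 of the identifiers. The study's own fold changes and *P* values were not used, and no sequence or position of these identifiers is used here.

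The genes with 250 reads or more in 8 or more livers (8580 genes, 97.7% of reads) were fitted with edgeR 4.0.16 (TMM, quasi-likelihood) in R 4.3.3, with Benjamini-Hochberg adjustment over all of them and a threshold of 0.15. The test was edgeR's where the study used DESeq2, which was run as an alternative (1.42.0, no independent filtering), as was limma 3.58.1. Scripts were tested on simulated counts. CPM used TMM library sizes, and log2 CPM a prior count of 2. The SE was the unshrunken coefficient over the root of F. Plots used Python 3.11.15 and matplotlib 3.10.9.

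The genes and lists were chosen with earlier results of these data known. Named genes are the members, list genes with an identifier, and for each member the 5 most and the 2 most negatively correlated genes with a symbol over CON livers. Total counts ranged from 23955166 to 33952503, and the smallest chi-square per degree of freedom between any 2 livers was 63.2, more than sampling noise gives for 1 library. Alternatives covered the test, normalization, filter, covariates, the replicate block, each sex alone and each liver left out. The values of 1 marker list are not reported here.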

Additional observations from a re-analysis of the deposited data

Results flagged for a closer look

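For the 4 rows, the log2 ratio of the *CBR1* rows and 6 marker sums, the highest and lowest liver of each group were compared with the rest by Dixon's ratio, the gap to the nearest liver over the range. Of 22 groups of livers, 2 passed the 95% critical value, and chance flags about 1 in 20. None was a group of *IDH1*, *CBR1* or *PTGR1*. The macrophage marker *CD163* was far below the rest in HOX animal 1 (ratio 0.614). The summed mesenchymal markers were highest in CON animal 9, with a ratio of 0.494 only just over the critical value of 0.493.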

How the results depend on the processing

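The HOX minus CON differences of the 4 rows stayed negative under every alternative run and moved by less than 1 SD of the livers, from −0.55 to −0.42 for *IDH1*, −0.87 to −0.63 for major *CBR1*, −0.91 to −0.63 for minor *CBR1* and −0.92 to −0.60 for *PTGR1*. Where the read minimum was applied within 1 sex alone, minor *CBR1* did not reach it and gave no value. Its values by sex above come from fits on the genes tested in 16 livers. Animal numbers did not pair the livers (correlations of same-numbered deviations from −0.31 to 0.15). With the replicate block over animals 1 to 7 the differences were −0.43, −0.80, −0.78 and −0.82, and 0 genes passed as lower in HOX, against 1 with no replicate block in those livers (an alternative chosen after seeing the data).

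The number of genes lower in HOX, 5 in the edgeR fit, was 138 with DESeq2, 95 with limma-voom, 1 without the read filter, 1 with library size only, 1 with the erythroid covariate, and 0 in males or females alone. It ran from 1 to 25 when 1 liver was left out, with 25 without HOX animal 5. For sex, DESeq2 called 7 genes and the CON livers alone 0 (1 to 2 with 1 liver left out). The sex difference of major *CBR1*, −0.01, changed sign with limma-voom (0.030) and in CON livers alone (0.10), and ran from −0.083 to 0.047 with 1 liver left out. For the interaction, DESeq2 called 6 genes, and 0 to 3 passed with 1 liver left out (3 without HOX animal 4). The interaction of *PTGR1* was 0.20 with limma-voom and ran from −0.48 to 0.27 with 1 liver left out, that of *IDH1* from −0.13 to 0.18 and that of minor *CBR1* from −0.13 to 0.57. All these sex and interaction differences lie inside the 95% intervals of the fits to 16 livers, and the causes were not tested. The correlation of the *CBR1* rows, recomputed after seeing the data, was 0.87 to 0.98 in CON livers and −0.94 to −0.83 in HOX livers with 1 liver left out, and 0.93 and −0.92 with library size only. The HOX values rest largely on the gap between 2 sets of animals, and leaving out 1 liver keeps both sets. Of the 5 genes most like each row, 4 or 5 stayed with library size only and 0 or 1 with residuals over all 16 livers. Without HOX animal 1 the residuals kept 3 for *IDH1*, 2 for major *CBR1*, 1 for minor *CBR1* and 0 for *PTGR1*. A search for promoter motifs was planned and not run, since no promoter could be matched. Depth limits minor *CBR1* most, with as few as 132 reads in a liver.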
